A study of Mus musculus with 24 samples.

Results

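The mRNAs of 10 genes that NF-kB switches on, or that switch NF-kB off, were followed across the mouse bone marrow arrays: *Nfkbia*, *Nfkbiz*, *Tnfaip3*, *Zfp36*, *Ptgs2*, *Rel*, *Relb*, *Icam1*, *Socs3* and *Maff*. The 10 genes were listed by name with earlier results of these data known, and 13 probes of the 41174 on the array carry them. One row was kept per gene, the probe with the brightest mean signal, and all 10 were among the 24387 genes tested. A probe listed as COX2, an older name of *Ptgs2*, was left out because its transcript accession is that of a mitochondrial gene.

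Total RNA of bone marrow from female C57BL/6j mice aged 6 weeks was labelled with Cy3 and set on each of the 24 arrays against a Cy5-labelled common pool of marrow from wild-type (WT) mice given oil, with no dye swap. WT mice received olive oil (3 arrays), benzo(a)pyrene (BP) for 6 h (2 arrays), 7,12-dimethylbenz(a)anthracene (DMBA) for 12 h (3 arrays) or the dioxin TCDD (2,3,7,8-tetrachlorodibenzo-p-dioxin) for 12 h (3 arrays). Mice lacking *Cyp1b1* received oil (2 arrays) or DMBA for 12 h (2 arrays), mice lacking *Cyp1a1* received oil (3 arrays) or BP for 12 h (3 arrays), and mice lacking both (double-null) received oil (1 array) or BP for 12 h (2 arrays). Injections were into the peritoneum, and the treatment text gives 50 mg/kg without setting a dose for each agent. Each sample was a pool of 9, and nothing in the labels says whether the pools came from separate mice, so p-values measure only the spread between these samples. Marrow is a mixture, and fewer cells of a type and less RNA per cell cannot be told apart here.

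NF-kB is a family of dimeric transcription factors held in the cytoplasm by inhibitor proteins until Toll-like, interleukin-1 or tumour necrosis factor receptors release it. Its first target genes include its own brakes, so that a burst of NF-kB activity leaves a short-lived rise of feedback mRNAs, and in marrow the myeloid cells are known for such bursts. BP and DMBA are polycyclic aromatic hydrocarbons that the CYP1 enzymes oxidise to reactive products, whereas TCDD activates the same aryl hydrocarbon receptor and is hardly metabolised. Of the 10 genes, *Nfkbia* encodes the inhibitor IkBa, *Nfkbiz* the nuclear inhibitor-like protein IkBz, and *Tnfaip3* the ubiquitin-editing enzyme A20. *Zfp36* encodes tristetraprolin, which destabilises cytokine mRNAs. *Rel* and *Relb* encode NF-kB subunits. *Ptgs2* encodes the inducible cyclooxygenase, *Icam1* an adhesion molecule, *Socs3* an inhibitor of cytokine receptor signalling and *Maff* a small Maf factor of the basic leucine zipper class.

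Promoter sequence was at hand for 8 of the 10 genes in a RefSeq table of build GRCm38.p6, none for *Relb* and *Nfkbiz*. The 250 bases before each listed start were searched on both strands for 3 motifs. They were the kappa B consensus (GGGRNWYYCC, with R for A or G, W for A or T, Y for C or T and N for any base), the core of the xenobiotic response element (GCGTG), which the aryl hydrocarbon receptor binds, and the cyclic AMP response element (TGACGTCA). None of these 3 motifs contains another. The kappa B consensus was found for 4 genes (*Nfkbia*, *Tnfaip3*, *Rel* and *Maff*), against 3.9% of all 32851 listed promoters. The xenobiotic core was found for 6 of the 8 genes, against 28.2% of promoters, and the cyclic AMP element for *Maff* alone, against 1.55%. The table lists several starts for some genes (3 for *Maff*, 2 for *Tnfaip3*), so that a gene can hold a motif at one start only. The gene counts take a match at any listed start, whereas the percentages are per single promoter, so they are not like for like. A match is a description of the letters and not a shown binding site. The last 130 bases before the start are printed for the promoters with a kappa B match, since 3 of these 4 genes are among those that were high in WT marrow 6 h after BP; capitals mark the matches.
Nfkbia, minus strand, chr12:55492648-55492777: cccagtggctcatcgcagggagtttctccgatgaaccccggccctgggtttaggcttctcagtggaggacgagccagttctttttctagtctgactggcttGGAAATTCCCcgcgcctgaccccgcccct
Tnfaip3, minus strand, chr10:19015411-19015540: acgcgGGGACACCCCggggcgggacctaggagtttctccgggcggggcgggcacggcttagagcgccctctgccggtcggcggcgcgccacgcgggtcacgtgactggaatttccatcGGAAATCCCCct
Rel, minus strand, chr11:23770970-23771099: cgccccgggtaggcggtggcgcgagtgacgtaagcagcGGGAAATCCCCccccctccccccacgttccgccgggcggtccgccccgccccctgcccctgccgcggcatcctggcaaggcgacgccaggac
Maff, the third listed start, plus strand, chr15:79348272-79348401: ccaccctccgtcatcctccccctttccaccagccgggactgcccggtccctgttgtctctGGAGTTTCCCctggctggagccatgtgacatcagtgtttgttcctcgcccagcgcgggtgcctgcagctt
The match of *Nfkbia* lay at positions -29 to -20 from the start, and *Tnfaip3* held 2 matches, at -125 to -116 and at -12 to -3. In *Rel* overlapping matches covered positions -92 to -82. *Ptgs2*, *Zfp36*, *Icam1* and *Socs3* held no match to this kappa B pattern in the 250 bases searched. Sequences that depart from the pattern by a letter were not counted, so a lack of kappa B sites is not shown.

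Levels are given as the log2 ratio of Cy3 to Cy5 after background correction and loess, so that 0 is the level of the WT oil pool and 1 is a doubling. WT oil replicate 1 stood apart: the SD of its log ratios over genes was 1.26, against 0.198 to 0.667 on the other 23 arrays. All 10 genes were higher there than in WT oil replicates 2 and 3. *Tnfaip3* read 4.66, *Nfkbiz* 3.49, *Nfkbia* 3.41 and *Relb* 2.84 on that array, whereas the other WT oil arrays read -0.37 and 0.25, -0.06 and 0.49, 0.38 and 0.44, and -0.18 and -0.02. Taken alone and scaled to the array's 75th percentile, the Cy3 channel of that array lay inside the range of the other 23 arrays for all 10 genes. Its Cy5 channel, which should hold the common pool, lay below all other arrays for 4 genes (*Nfkbiz*, *Tnfaip3*, *Ptgs2* and *Relb*) and above all others for *Maff*. For *Tnfaip3* the Cy5 value was -0.15 there and 1.35 to 3.59 elsewhere, while the Cy3 value of 4.16 lay between the 2.40 and 5.48 of the others. On the same array the median log ratio of the 10 neutrophil markers was 4.76 (elsewhere -0.48 to 1.35), that of the 8 B cell markers 2.87 (elsewhere -0.80 to 0.61), and that of 11 liver genes -2.88 (elsewhere -0.11 to 0.11); their part in the values of the 10 genes was not tested. Calls of the 10 genes are therefore given with all 24 arrays and without that replicate. The reference channel also differed on the Cyp1b1-null DMBA arrays: for *Socs3* its scaled Cy5 was 1.97 and 1.22 there and 2.10 to 3.55 on all other arrays. For *Ptgs2* (-0.37 and -0.16) and *Rel* (-0.42 and -0.15) the Cy5 was instead higher there than on all other arrays. On replicate 2 of that group Cy5 was below every other array for *Nfkbia*, *Zfp36*, *Icam1* and *Socs3*. For the genes called in comparisons with that group the Cy3 channel alone is given too. The shares of all genes called, here and below, are those of log ratios. None is given for Cy3 alone, so calls made there have no background beside them. The part of these low and high Cy5 values was not tested.

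**Figure D1:**
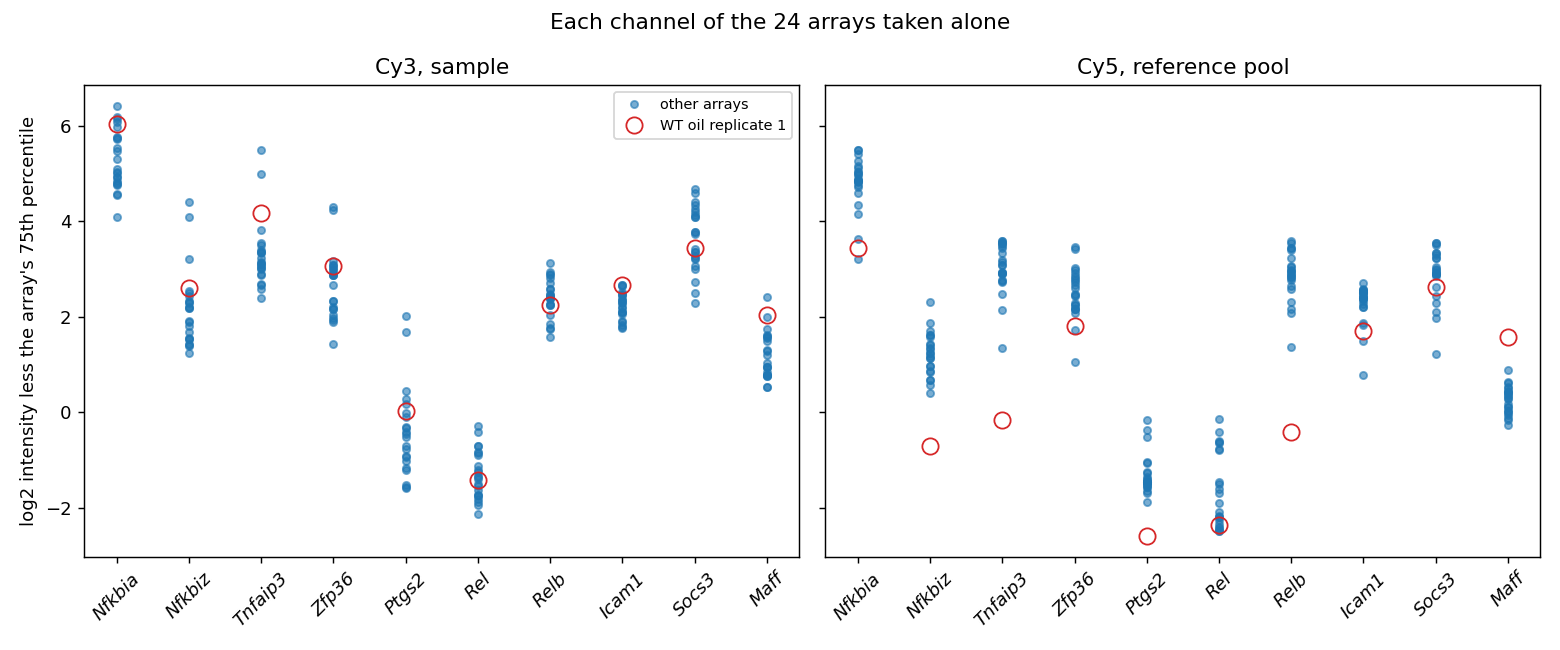
Each channel of the 24 arrays taken alone, as the log2 intensity less the array's own 75th percentile, for the Cy3 sample (left) and the Cy5 reference pool (right) of each gene. The open red circle is WT oil replicate 1, which lies inside the other arrays' Cy3 range for all 10 genes and outside their Cy5 range for 5.

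A deposited table of 9 comparisons bears on this array. For the 3 comparisons that leave WT oil out, the authors' deposited table follows the difference of the log ratios that the scanner files themselves hold, before the background correction and loess used here (correlation at least 0.999988 over spots). In a regression of each of the other 6 columns on the treated mean and the WT oil arrays, WT oil replicate 1 received a weight between -0.002 and 0.008. Replicate 2 received -0.384 to -0.352 and replicate 3 -0.446 to -0.41. The control values implied by these 6 columns were nearly identical (lowest correlation 0.999959), so the authors' deposited table holds almost nothing of that array as it was deposited.

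At 6 h after BP, WT marrow held more mRNA of *Nfkbiz*, of the feedback brakes *Tnfaip3* and *Nfkbia*, of *Ptgs2*, of *Socs3* and of *Maff* than WT oil replicates 2 and 3. *Nfkbiz* was 8.7-fold higher, *Ptgs2* 5.99-fold, *Tnfaip3* 4.87-fold, *Maff* 2.85-fold, *Nfkbia* 2.56-fold and *Socs3* 2.45-fold. *Rel*, *Relb* and *Icam1* did not pass the test, at 0.33, -0.16 and 0.10 on the log2 scale. With all 24 arrays only *Maff* passed it; WT oil replicate 1 was higher than both BP arrays for *Nfkbia*, *Tnfaip3*, *Zfp36*, *Relb* and *Icam1* and lay between them for *Nfkbiz* and *Rel*.

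*Nfkbiz* read 3.50 and 3.18 in the BP arrays. These values lie above every array of another group except WT oil replicate 1, at 3.49. The change was 3.12 ± 0.34 (SE) on the log2 scale without WT oil replicate 1 (limma, adjusted p = 0.000692) and 2.03 ± 0.68 with all arrays (adjusted p = 0.175). *Tnfaip3* read 2.39 and 2.05 after BP, again above every array but WT oil replicate 1. Its change was 2.28 ± 0.37 without that replicate (limma, adjusted p = 0.00434) and 0.71 ± 0.94 with it (adjusted p = 0.741). *Nfkbia* read 1.86 and 1.67, and its change was 1.36 ± 0.20 (adjusted p = 0.00212) or 0.35 ± 0.58 (adjusted p = 0.801). All 3 genes were thus called without that control array and none with it.

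*Ptgs2* read 3.52 and 3.14 after BP, higher than in each of the other arrays. The spot of its brighter probe was flagged as uneven on WT oil replicate 2, so the change without WT oil replicate 1, 2.58 ± 0.56 (limma, adjusted p = 0.0189), rests on a single control array at 0.75; with all arrays it was 1.74 ± 0.55 (adjusted p = 0.16). The second probe of *Ptgs2*, spotted 10 times, was measured on WT oil replicates 2 and 3 (0.31 and 1.15) and in the BP arrays (4.30 and 3.55), a difference of 3.19. *Socs3* read 1.59 and 1.43 after BP against 0.10 and 0.34 in WT oil replicates 2 and 3, a change of 1.29 ± 0.16 (limma, adjusted p = 0.000724). With all arrays its change was 0.92 ± 0.25 (adjusted p = 0.101).

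*Maff* read 2.14 and 1.37 after BP, and the WT oil arrays read 0.77, 0.55 and -0.06. The log ratios of the groups did not overlap even with replicate 1 in place. The scaled Cy5 of replicate 1 was 1.58, however, against at most 0.89 on the other arrays. On Cy3 alone replicate 1, at 2.03, lay between the BP arrays, at 2.42 and 1.59. Its change was 1.34 ± 0.27 with all arrays (limma, adjusted p = 0.0314) and 1.51 ± 0.27 without replicate 1 (adjusted p = 0.00632). *Zfp36* read 1.14 and 1.16, above WT oil replicates 2 and 3 (-0.08 and 0.62) and below replicate 1 (1.67), and it did not pass the test (0.88 ± 0.31, adjusted p = 0.128; 0.42 ± 0.39 and 0.613 with all arrays). Its dimmer probe gave a difference of 1.43. *Rel* (0.88 and 0.31), *Relb* (-0.30 and -0.22) and *Icam1* (0.31 and -0.15) were not called.

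Of the 10 genes, 1 was called higher and 0 lower with all arrays, where 0.197% of all genes tested were called higher and 0.525% lower. Without WT oil replicate 1 the count was 6 higher and 0 lower, against 1.48% and 2.37% of all genes. The median change of the 10 was then 1.32, and that of all genes 0.02. Of the 10 genes, 7 lay wholly above the remaining controls, as did 23.1% of all genes. On the Cy3 channel alone, which leaves the reference pool out, *Nfkbiz* was higher by 2.49 with all arrays (limma, adjusted p = 0.0169). Without WT oil replicate 1, *Nfkbiz* (2.92), *Ptgs2* (2.76), *Tnfaip3* (2.33) and *Socs3* (1.69) were called on Cy3 alone, and *Nfkbia* (1.46, adjusted p = 0.0978) and *Maff* (1.35, adjusted p = 0.143) were not. No slide held both groups. With slide as a random block (consensus correlation 0.567) and without WT oil replicate 1, *Nfkbiz* alone remained called, at 3.07 ± 0.45 (limma, adjusted p = 0.0284); the others kept changes of 1.32 to 2.58 for *Socs3*, *Nfkbia*, *Maff*, *Tnfaip3* and *Ptgs2*, with adjusted p from 0.0974 to 0.356.

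The authors' deposited table gives differences close to those without WT oil replicate 1. It lists 3.11 for *Nfkbiz*, 3.13 for *Ptgs2*, 2.38 for *Tnfaip3*, 1.45 for *Maff*, 1.39 for *Socs3* and 1.25 for *Nfkbia*. *Zfp36* stands at 1.37 in the authors' deposited table.

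**Figure D2:**
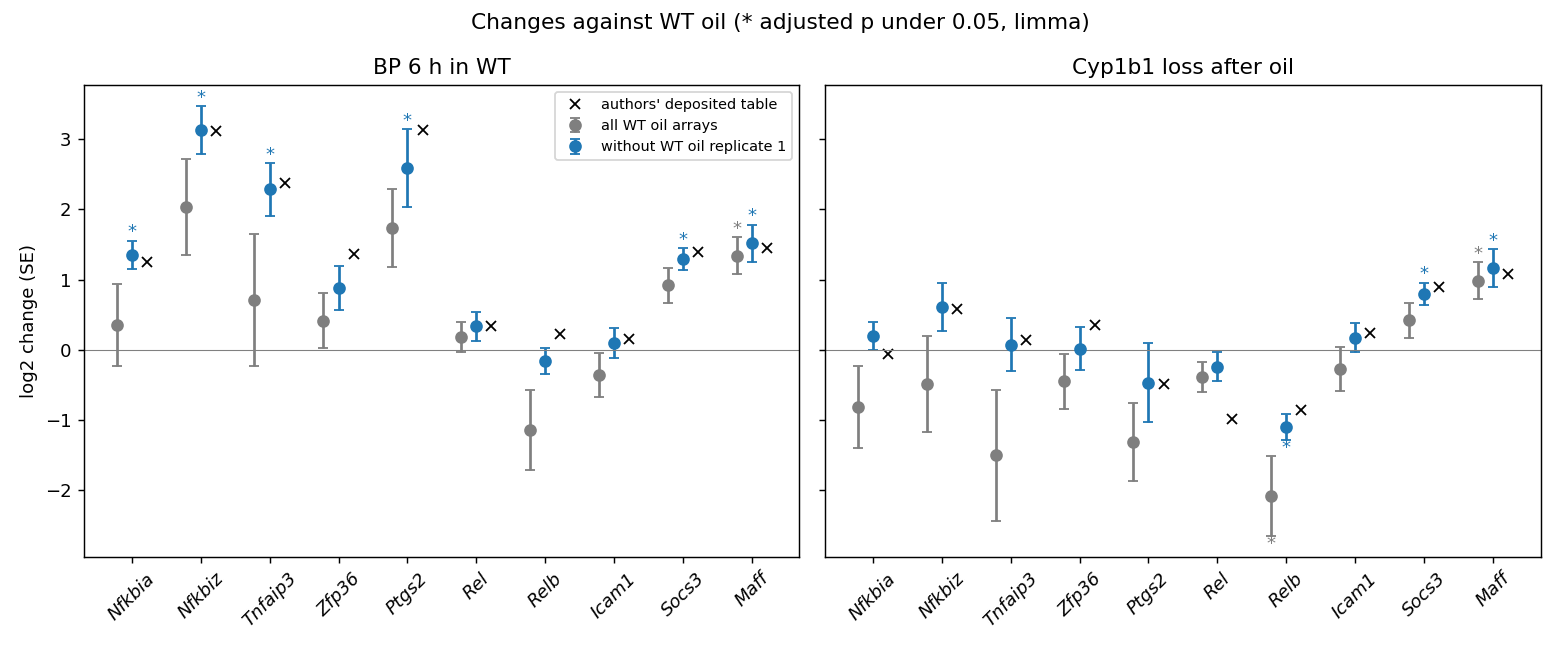
The log2 change (vertical axis, bars are SE) of each gene in WT marrow 6 h after BP (left) and in Cyp1b1-null marrow after oil (right), each against WT oil. Grey points use all arrays, blue points leave out WT oil replicate 1, crosses are the authors' deposited table, and stars mark adjusted p under 0.05. In the left panel the blue points of *Nfkbiz*, *Ptgs2* and *Tnfaip3* reach 3.12, 2.58 and 2.28; in the right panel *Relb* lies below 0 with and without the replicate.

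Some ligands that set off NF-kB were higher in the same BP arrays. *Tnf*, which encodes tumour necrosis factor, rose by 2.44 ± 0.21 (limma, adjusted p = 4.11e-05) and *Il1a*, which encodes interleukin-1 alpha, by 2.26 ± 0.26 (adjusted p = 0.000692) without WT oil replicate 1; with all arrays *Il1a* was called too (2.44 ± 0.26, adjusted p = 0.00106). These were the 2 called of 9 ligand genes, both higher. Of the 22 other NF-kB induced genes measured, 7 were called higher and 0 lower, with a median change of 0.48. They included the chemokine-binding receptor *Ccrl2* (2.09 ± 0.26), the survival gene *Ier3* (1.59 ± 0.22) and the C-type lectin *Clec4e* (0.92 ± 0.20). Of 16 other NF-kB brakes, 2 were called higher, *Zc3h12a* (1.21 ± 0.24), an RNase that degrades cytokine mRNAs, and *Tax1bp1* (0.56 ± 0.14), an A20 partner.

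None of the 25 kinases and adaptors, none of the 8 other subunits and inhibitors and none of the 15 SOCS and small Maf genes was called. Of 17 receptors, *Tlr7* (0.93 ± 0.14) and *Cd14* (1.66 ± 0.44) rose and *Tlr4* fell by 0.94 ± 0.20. Among mRNA decay and prostaglandin genes, *Ptgs1*, the constitutive cyclooxygenase, rose by 0.75 ± 0.18 and the prostaglandin receptor gene *Ptger2* fell by 0.96 ± 0.25. With all arrays the calls over these 8 lists came down to *Il1a* and *Tlr4*.

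Cell type markers moved beside these genes. Without WT oil replicate 1, 3 of 10 monocyte and macrophage markers (*Fcgr1*, *Mpeg1* and *Cd14*, which is also among the receptors above), 1 of 10 neutrophil markers and 2 of 8 erythroid markers were called higher after BP, and 2 of 8 megakaryocyte markers lower (*Ppbp* and *Treml1*). The summed Cy3 level of the 10 monocyte markers was 16.44 and 16.54 (log2) in the BP arrays and 15.69 and 15.72 in WT oil replicates 2 and 3. That of the megakaryocyte markers was 12.75 and 12.22 against 13.85 and 13.70. These sums, here and below, were not scaled for differences in brightness between arrays. All 10 monocyte markers were well above background on every array. Their part in the changes of the 10 genes was not tested.

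DMBA and TCDD were both given to WT mice for 12 h, and an equal dose of the agents is not stated. After TCDD, *Nfkbiz* read 1.40, 1.70 and 1.14, whereas after DMBA it read 0.03, 0.07 and 0.50. The DMBA arrays were lower by 1.21 ± 0.28 (limma without WT oil replicate 1, adjusted p = 0.0151; 0.586 with all arrays). *Relb* read 0.54, 0.37 and 0.17 after TCDD and -0.26, -0.21 and -0.41 after DMBA, a difference of -0.65 ± 0.15 (adjusted p = 0.0157 without and 0.836 with that replicate). The replicate left out is in neither group: the differences are the same in both fits and only the estimate of the spread changes. On Cy3 alone neither gene was called: *Relb* turned to 0.10 (adjusted p = 0.684 with all arrays and 0.680 without the replicate) and *Nfkbiz* was at -0.58 (0.156 and 0.109). Named here after their values were seen, 3 other genes were called on Cy3 alone with all arrays, *Zfp36* (1.23 ± 0.26) and *Socs3* (0.61 ± 0.28) higher and *Rel* (-0.65 ± 0.28) lower after DMBA.

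DMBA, a polycyclic aromatic hydrocarbon, and TCDD, a chlorinated dioxin, thus differed at 2 of the 10 genes in the fit without that replicate, both lower after DMBA, where 1.85% of all genes were called lower and 4.44% higher; with all arrays 0 were called (background 0.525% higher and 0.123% lower). *Tnfaip3* was not called (-0.92, 95% interval -1.56 to -0.27, adjusted p = 0.0911), nor was *Maff* (-0.61, -1.07 to -0.15, adjusted p = 0.114). The intervals of *Nfkbia* (-0.53 to 0.16) and *Icam1* (-0.56 to 0.16) include 0. Of the markers, 6 of 8 erythroid ones were lower and 6 of 10 monocyte ones higher after DMBA than after TCDD. The summed monocyte level, not scaled for array brightness, was 16.18 to 16.38 after DMBA and 14.90 to 15.74 after TCDD. Its part was not tested. All 3 TCDD arrays lay on 1 slide and the DMBA arrays on 2 others. With slide as a random block and without WT oil replicate 1, *Nfkbiz* was at -1.10 ± 0.42 (adjusted p = 0.424) and *Relb* at -0.63 ± 0.26 (adjusted p = 0.469).

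Against WT oil, TCDD went with higher *Nfkbiz* (1.20 ± 0.31, limma, adjusted p = 0.0357) and *Socs3* (0.60 ± 0.14, adjusted p = 0.0254) without WT oil replicate 1, and 0 of the 10 genes were called with all arrays (0.11 ± 0.61 for *Nfkbiz*, adjusted p = 0.939). The background was 2.21% of all genes called higher and 3.91% lower, or 0.303% and 1.89% with all arrays. *Socs3* read 0.73, 1.10 and 0.62 after TCDD, all above WT oil replicates 2 and 3 and below replicate 1, at 1.35. On Cy3 alone its change turned to -0.11 without that replicate, and *Nfkbiz* was not called (0.77, adjusted p = 0.0701; 0.34 and 0.414 with all arrays). The gene called there was *Zfp36*, lower after TCDD (-0.93 ± 0.29, or -1.06 ± 0.26 with all arrays), named after its value was seen. That call on Cy3 alone has no share of all genes beside it. *Maff* read 0.69, 1.01 and 1.51 and fell short of the threshold (0.83 ± 0.24, adjusted p = 0.052; 0.65 ± 0.24 and 0.138 with all arrays). The authors' deposited table lists 1.39 for *Nfkbiz* and 0.76 for *Socs3*. With slide as a random block and without WT oil replicate 1 the changes were 1.15 and 0.62, with adjusted p = 0.361 and 0.362. Of the wider pathway, *Bcl3*, a nuclear inhibitor-like partner of NF-kB, fell by 0.83 ± 0.15 (adjusted p = 0.00918).

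None of the 10 genes was called after DMBA in WT marrow. With all arrays limma called 0 of 10 at adjusted p under 0.05 (1 had an unadjusted p under 0.05), and 0.0% of all genes in either direction. Without WT oil replicate 1 it again called 0 of 10 (1 with an unadjusted p under 0.05), against 0.0902% of genes called higher and 0.0082% lower. *Socs3* came nearest, at 0.60, 0.53 and 0.49 against 0.10 and 0.34 in WT oil replicates 2 and 3 (0.32 ± 0.14, adjusted p = 0.51). On slide 2, which holds 2 DMBA arrays and WT oil replicate 2, the difference of *Socs3* was 0.47, that of *Zfp36* 0.34, and those of *Nfkbia*, *Nfkbiz*, *Tnfaip3*, *Rel*, *Relb*, *Icam1* and *Maff* between -0.06 and 0.16. The 95% interval of the change of *Nfkbiz* ran from -0.68 to 0.64, which leaves out the 3.12 seen 6 h after BP; hour and agent both differ between those groups.

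**Figure D3:**
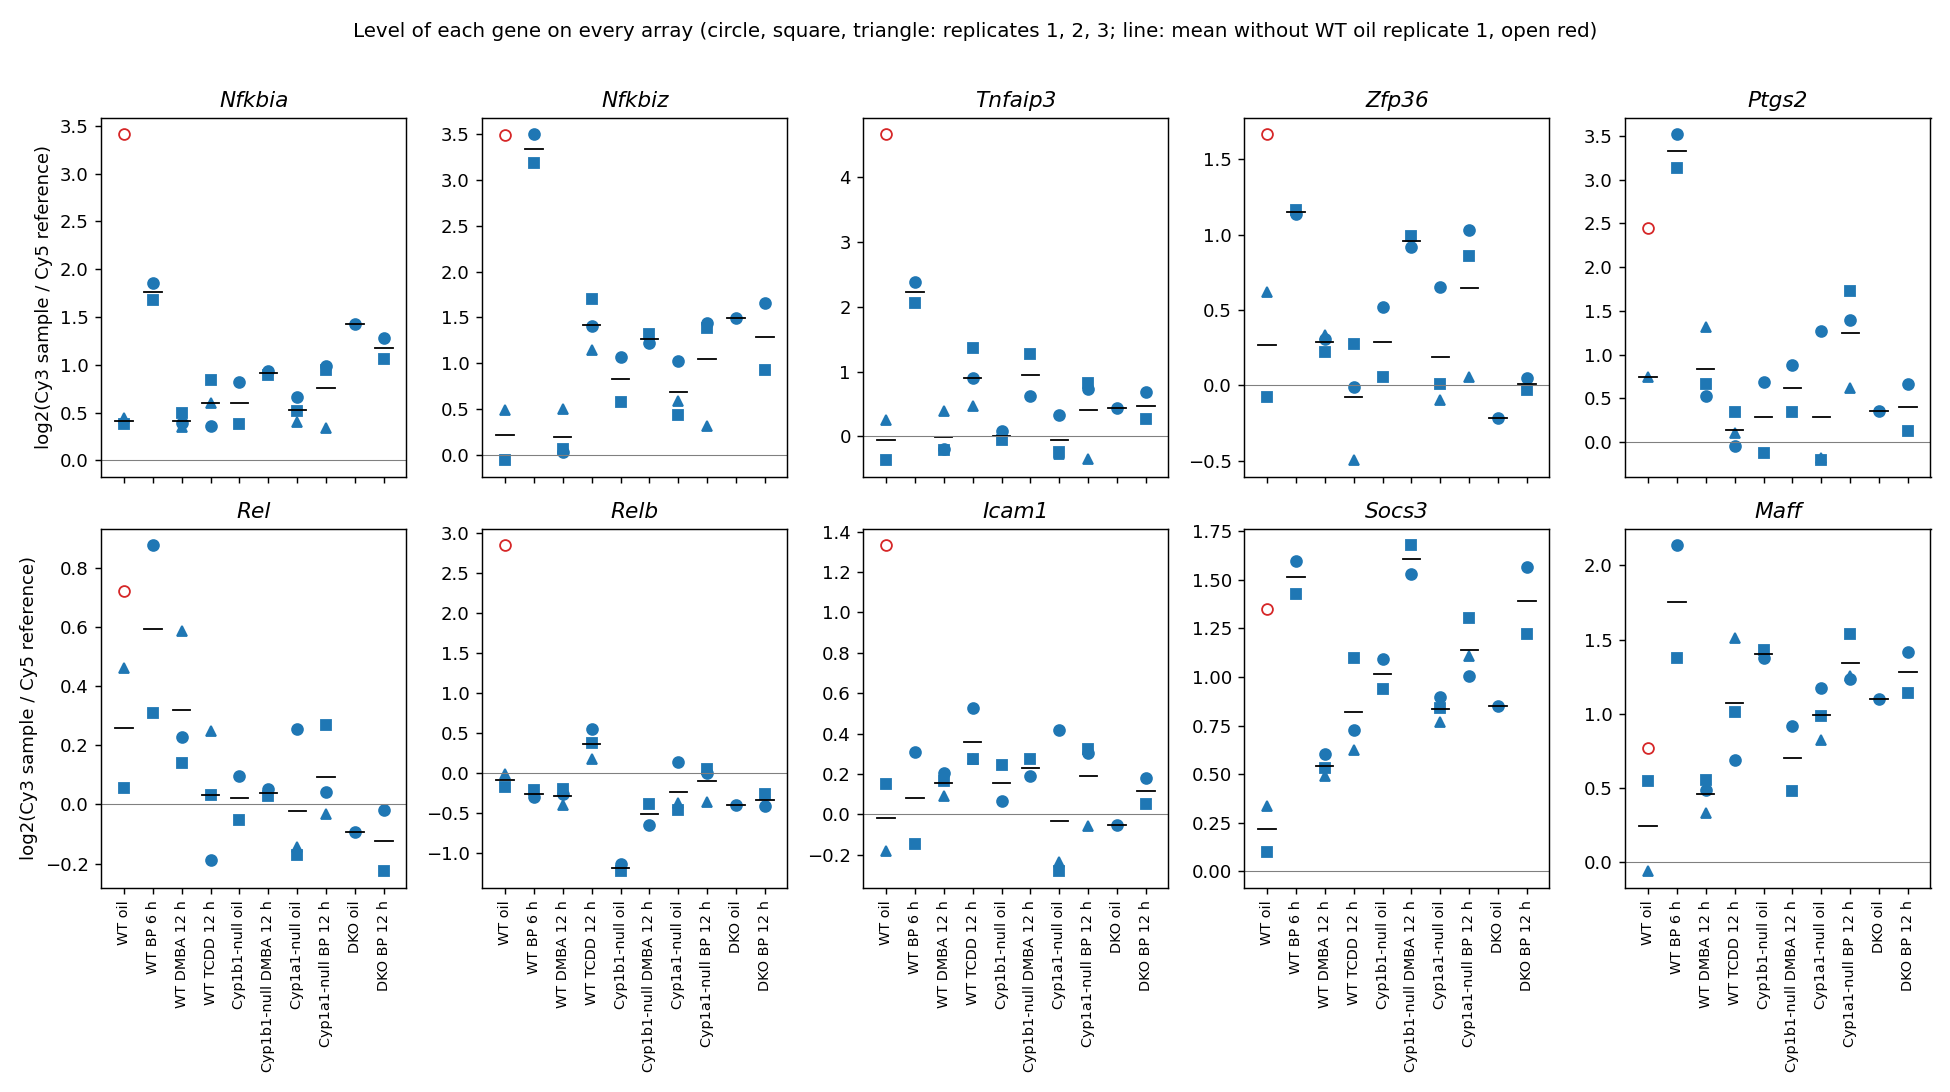
The log2 ratio of Cy3 sample to Cy5 reference (vertical axis) of each gene on every array, by group (horizontal axis). Circles, squares and triangles are replicates 1, 2 and 3, WT oil replicate 1 is open and red, and lines are group means without it. *Nfkbiz*, *Ptgs2* and *Tnfaip3* are high in both BP 6 h arrays and in WT oil replicate 1, and *Relb* is lowest in the 2 Cyp1b1-null oil arrays, at -1.15 and -1.24.

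After oil alone, the log ratio of *Relb* was lower and that of *Maff* higher in marrow without *Cyp1b1* than in WT marrow. *Relb* read -1.15 and -1.24 there, lower than on each of the other 22 arrays. Its change was -2.07 ± 0.57 with all arrays (limma, adjusted p = 0.0235) and -1.09 ± 0.18 without WT oil replicate 1 (adjusted p = 0.00106), so it was called in both fits at different sizes. The authors' deposited table lists -0.85. *Maff* read 1.37 and 1.43 and was higher by 0.99 ± 0.27 (adjusted p = 0.022) or 1.16 ± 0.27 (adjusted p = 0.00501). *Socs3*, at 1.09 and 0.94, was called only without the replicate (0.80 ± 0.16, adjusted p = 0.00226; 0.42 ± 0.25 and 0.265 with all arrays).

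The wider background was large in this comparison. With all arrays 8.57% of genes were called higher and 6.92% lower, and without WT oil replicate 1 17.3% and 12.4%, beside 1 higher and 1 lower of the 10 with all arrays and 2 higher and 1 lower without that replicate. With slide as a random block and without that replicate, *Relb* (-1.18 ± 0.26, limma, adjusted p = 0.0181) and *Socs3* (0.81 ± 0.23, adjusted p = 0.0425) were called and *Maff* was not (1.12 ± 0.38, adjusted p = 0.0748). With all arrays and the block none was called, *Relb* standing at -2.05 ± 0.65 (adjusted p = 0.313). On Cy3 alone none of the 3 was called, with *Relb* at -0.72, *Socs3* at 0.38 and *Maff* at -0.17 with all arrays. The scaled Cy5 of *Maff* was -0.16 and -0.28 on the Cyp1b1-null oil arrays, below every other array. Its Cy3 was 0.95 and 0.94 there and 2.03, 0.53 and 0.79 in WT oil. For *Relb* the Cy5 was 3.55 and 3.22, against -0.42, 2.31 and 3.06 in WT oil. Its Cy3 was 1.84 and 1.59, against 2.24, 2.25 and 2.80. The part of Cy5 was not tested, and no slide held both groups. *Rel*, the other subunit gene, read 0.10 and -0.05 and was not called (-0.24 ± 0.21), while the authors' deposited table lists -0.98 for it.

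Of the 25 kinases and adaptors that lead to NF-kB, 7 were lower and 1 higher in Cyp1b1-null oil marrow without WT oil replicate 1, with a median change of -0.15, and 5 were lower and 0 higher with all arrays. Of all genes tested, 17.3% were called higher and 12.4% lower without the replicate, or 8.57% and 6.92% with all arrays. The lists and markers were described and not tested as sets. The values of single genes in the lists are those without the replicate. *Ripk2*, a kinase downstream of NOD receptors, fell by 0.74 ± 0.15 (limma, adjusted p = 0.00234), the receptor adaptor *Traf5* by 1.30 ± 0.27 (adjusted p = 0.00283) and *Map3k7*, which encodes the kinase TAK1, by 0.60 ± 0.13 (adjusted p = 0.00383). Among the 8 other subunits and inhibitors *Bcl3* fell by 0.94 ± 0.17 (adjusted p = 0.00146). *Tnip1*, an A20 partner, fell by 1.10 ± 0.21, while 3 of the 16 brakes were higher, a share near that of all genes. Among these 3 was *Itch* (0.67 ± 0.15). Of 15 SOCS and small Maf genes 6 were lower (3 with all arrays), among them *Cish* (-0.92 ± 0.16) and *Bach2* (-1.59 ± 0.32), a B cell repressor. Of the markers, 3 of 8 B cell ones were lower and 1 higher, 4 of 10 monocyte and 3 of 10 neutrophil ones were higher (with all arrays 4 lower B cell, 2 higher monocyte and 0 neutrophil markers), and the summed B cell level was 14.73 and 14.89 against 15.73 and 15.54 in WT oil replicates 2 and 3; its part was not tested.

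After DMBA in Cyp1b1-null mice the log ratios of *Relb* and *Socs3* were called higher than after oil in the same mice, in the fit without WT oil replicate 1 and not on Cy3 alone. *Relb* read -0.65 and -0.39 after DMBA (0.67 ± 0.18, limma without WT oil replicate 1, adjusted p = 0.0372), still below the -0.18 and -0.02 of WT oil replicates 2 and 3. *Socs3* read 1.53 and 1.68 (0.59 ± 0.16, adjusted p = 0.0319). With all arrays 0 of 10 were called, the adjusted p being 0.795 and 0.338. The background was 3.35% of genes called higher and 4.15% lower, or 0.0041% and 0.0205% with all arrays. On Cy3 alone and without the replicate *Relb* was at 0.04 ± 0.27 (adjusted p = 0.932) and *Socs3* at 0.39 ± 0.32 (adjusted p = 0.397). *Nfkbia*, *Nfkbiz*, *Tnfaip3* (0.62 and 1.27, after 0.08 and -0.05 in oil) and *Zfp36* (0.92 and 0.99, after 0.52 and 0.06) were also wholly above oil, without being called, so that 6 of the 10 lay wholly higher, as did 35.1% of all genes. *Maff* went the other way, at 0.92 and 0.48 after 1.37 and 1.43, and was not called either (-0.70 ± 0.27, adjusted p = 0.11). *Ptgs2* read 0.88 and 0.35 after 0.68 and -0.12 (0.33 ± 0.46), while the authors' deposited table lists 2.48. The scaled Cy5 of *Ptgs2* was -0.37 and -0.16 after DMBA and -1.40 and -1.27 after oil, and its part was not tested. The groups lay on different slides, and with slide as a random block and without WT oil replicate 1 *Relb* was at 0.80 ± 0.30 (adjusted p = 0.555) and *Socs3* at 0.60 ± 0.26 (adjusted p = 0.669). Markers moved as well: of 10 neutrophil ones *S100a9* was lower (-2.30 ± 0.29) and *Elane* higher (1.26 ± 0.34), and of 8 erythroid ones *Alas2* was lower (-1.05 ± 0.18); their part was not tested.

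Between the genotypes after DMBA, *Socs3* relative to the pool was 2.09-fold higher in Cyp1b1-null than in WT marrow given DMBA (1.06 ± 0.14, limma without WT oil replicate 1, adjusted p = 0.00125; 0.198 with all arrays), with 1.53 and 1.68 against 0.49 to 0.60. It was 1 of 10 called, beside 0.853% of genes called higher and 0.726% lower, or 0.0369% and 0.0656% with all arrays. On Cy3 alone the difference was 0.48 and was not called (limma, adjusted p = 0.169 with all arrays and 0.147 without the replicate). *Relb* was called lower in Cyp1b1-null marrow there (-0.63 ± 0.25, adjusted p = 0.0313 with all arrays). The shares above are of log ratios, so this call on Cy3 alone has no background beside it. The groups lay on different slides. With slide as a random block and without the replicate, the difference of *Socs3* was 1.03 ± 0.24 (adjusted p = 0.348). The difference of the 2 DMBA responses was called for none of the 10 genes with either set of arrays (limma; 1 and 2 had an unadjusted p under 0.05). It was 0.86 ± 0.25 for *Relb* without WT oil replicate 1 (adjusted p = 0.0666), where 1.34% of genes were called higher and 1.71% lower, against 0.0041% each way with all arrays.

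**Figure D4:**
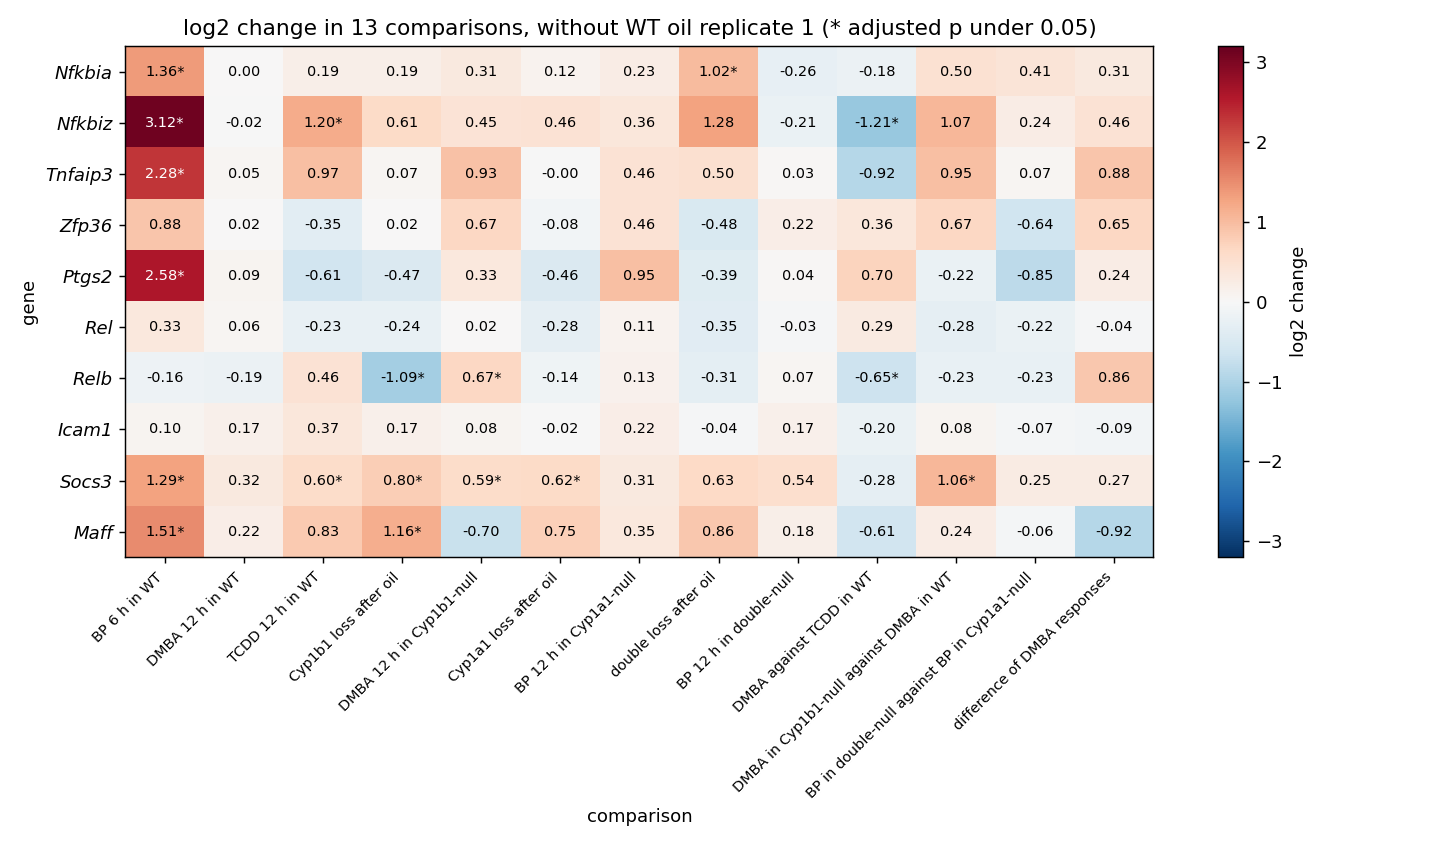
The log2 change of the 10 genes (rows) in the 13 comparisons (columns) without WT oil replicate 1, coloured from blue (lower) to red (higher), with stars at adjusted p under 0.05. The BP 6 h column holds 6 stars, *Socs3* carries 6 in its row, and the columns of BP at 12 h hold none.

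Loss of *Cyp1a1* left 9 of the 10 genes uncalled after oil. No slide held both groups, and intensities of the Cyp1a1-null oil arrays were extracted with a later software version than those of WT oil. The part of slide and software version was not tested. *Socs3* read 0.90, 0.84 and 0.77 and was higher than in WT oil replicates 2 and 3 by 0.62 ± 0.14 (limma, adjusted p = 0.0179; 0.528 with all arrays), beside 3.22% of genes called higher and 4.38% lower (1.04% and 2.55% with all arrays). The authors' deposited table lists 0.71. With slide as a random block and without WT oil replicate 1 it was at 0.65 ± 0.22 (adjusted p = 0.216), and on Cy3 alone it was called with all arrays (1.18, adjusted p = 0.0229). Of the markers, without that replicate, 3 of 10 neutrophil ones (*Camp*, *Mpo* and *S100a9*) and 3 of 8 erythroid ones were higher and 1 erythroid one lower, and *Ly6c2*, a monocyte marker, was higher by 1.36 ± 0.23 and another lower; their part was not tested. *Maff* read 1.18, 0.98 and 0.82, above all 3 WT oil arrays, and was not called (0.75 ± 0.24, adjusted p = 0.069; 0.58 ± 0.24 and 0.15 with all arrays). *Tnf* (1.42 ± 0.19) and *Il1a* (0.83 ± 0.23) were higher there as well, with *Tnfaip3* at 0.33, -0.24 and -0.27.

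After BP for 12 h in Cyp1a1-null mice limma called 0 of the 10 genes in either fit (0 and 2 with an unadjusted p under 0.05), beside 0.144% of genes called higher and 0.0123% lower (0.0328% and 0.0% with all arrays). The 3 BP arrays disagreed along the slides. Replicates 1 and 2, on slide 7, read 0.72 and 0.82 for *Tnfaip3*, 1.44 and 1.38 for *Nfkbiz*, and 1.03 and 0.86 for *Zfp36*. Replicate 3, on slide 9 with the 3 oil arrays, read -0.34, 0.31 and 0.05. The extraction software split the arrays in the same way. Replicate 3 and the 3 oil arrays had the later version and another background method than replicates 1 and 2. Slide and extraction therefore cannot be told apart here. Within slide 9 the differences from oil were -0.28, -0.37 and -0.14 for these genes. Those of *Ptgs2*, *Socs3* and *Maff* were 0.33, 0.28 and 0.26. The smallest adjusted p was that of *Ptgs2* (0.95 ± 0.37, adjusted p = 0.132).

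In double-null marrow after oil, measured on 1 array that is assumed to vary like the others, *Nfkbia* read 1.43 and *Nfkbiz* 1.49. *Nfkbia* was called against WT oil replicates 2 and 3 (1.02 ± 0.24, limma, adjusted p = 0.0228) but not with replicate 1 (0.02 ± 0.74, adjusted p = 0.993), beside 3.06% of genes called higher and 2.97% lower (0.677% and 0.853% with all arrays). The authors' deposited table lists 0.83, and with slide as a random block and without WT oil replicate 1 it was at 1.04 ± 0.30 (adjusted p = 0.126). All 3 double-null arrays lay on slide 10. After BP for 12 h limma called 0 of the 10 genes there (0 and 1 with an unadjusted p under 0.05), beside 0.316% of genes called higher and 0.201% lower (0.197% and 0.0862% with all arrays), and *Nfkbia* read 1.28 and 1.06. *Socs3* read 1.56 and 1.22 against 0.85 on the oil array (0.54 ± 0.19, adjusted p = 0.295). Set against BP in Cyp1a1-null mice, BP in double-null mice gave 0 of 10 called in limma (0 and 2 with an unadjusted p under 0.05), beside 1.68% of genes called higher and 1.96% lower (0.0902% and 0.082% with all arrays); the smallest adjusted p was 0.206, for *Nfkbia* (0.41 ± 0.18).

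Across the 10 group means without WT oil replicate 1, *Tnfaip3* and *Nfkbiz* followed the average pattern of the 10 genes, each centred on its own mean, most closely, with correlations of 0.960 and 0.952. *Ptgs2* (0.870) and *Nfkbia* (0.802) came next, *Rel* stood at 0.566, and *Icam1* (0.139) and *Relb* (0.115) were lowest. The average includes each gene itself and was not scaled, so genes with larger changes weigh more in it. The ranking therefore does not measure shared behaviour independently. The group means share the reference pool and, in part, slides, and the BP 6 h group has the highest value, 0.98 against -0.35 in WT oil. Outside the 10 genes, the nearest patterns over these 10 means were those of a transcript without a symbol here (0.944), *Cxcl2* (0.934), *Trib1* (0.929), *Cxcl10* (0.927) and *Ccrl2* (0.927). *Cxcl2* and *Cxcl10* encode chemokines.

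*Socs3* ordered the groups in another way. Its mean log ratio was highest in Cyp1b1-null marrow after DMBA (1.60 ± 0.10, SD, n = 2) and after BP for 6 h in WT (1.51 ± 0.12, n = 2), which lie within their spread of each other. BP for 12 h followed in double-null (1.39 ± 0.24, n = 2) and Cyp1a1-null marrow (1.14 ± 0.15, n = 3). The oil-treated null groups (Cyp1b1-null, Cyp1a1-null and double-null) lay at 1.01 ± 0.11, 0.83 ± 0.06 and, on 1 array, 0.85. WT after TCDD (0.82 ± 0.25, n = 3) and DMBA (0.54 ± 0.06, n = 3) came before WT oil replicates 2 and 3 (0.22 ± 0.17). This order differs on Cy3 alone, where the Cyp1b1-null DMBA arrays (3.77 and 3.78) lay below the WT BP arrays (4.60 and 4.35), the Cyp1a1-null oil arrays (4.26, 4.09 and 4.19) and the double-null BP arrays (4.67 and 4.13). *Icam1* showed the least spread: its 23 other arrays lay between -0.28 and 0.53, and its second, dimmer probe gave differences of the opposite sign in WT after BP (-0.25) and TCDD (-0.25), so that no direction is given for it.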

How the data were processed

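Scanner files of 24 Agilent 2-colour arrays were used. Spot and local background intensities were extracted with Feature Extraction 9.1.3.1 or 10.7.3.1, per the file headers, which also supply the flags used here and a log10 ratio that served only as a check. The later version was used for the arrays of slide 9 (Cyp1a1-null oil, and replicate 3 of BP in Cyp1a1-null mice) and the earlier one for all others. The deposited table holds log2 differences for 9 comparisons, and the submitters' processing notes name limma without a version. The log2 ratio of Cy3 (sample) to Cy5 (reference) was computed from the deposited mean and background intensities with normexp (offset 50) and within-array loess with control spots at weight 0. Spots flagged as non-uniform (0.0585%) were left out, spots of a probe were averaged, and the probe with the highest mean signal stood for its gene. A gene was tested where Cy3 was well above background on at least 3 arrays.

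The 10 group means were fitted over all arrays in limma 3.58.1 (R 4.3.3), with Benjamini-Hochberg adjustment over all genes and a threshold of 0.05, with and without WT oil replicate 1. The fit was tried on simulated data with independent noise, no outlying array and no shared slides, so that trial says nothing on these features. The double-null oil group has 1 array, assumed to vary like the other groups. A gene and comparison pair was named as changed where it was called in either fit; other list genes were limited to 3 per list and comparison, by adjusted p. The 10 genes, the lists and the rules were chosen with earlier results of these data known. The number of arrays limits the precision. Gene names come from RefSeq through accessions or symbols where they matched, and otherwise from the array design. No label or file header names a genome build for the array annotation. Same-numbered samples of different groups did not deviate together (correlations of -0.24 to 0.34 over 82 pairs).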

Additional observations from a re-analysis of the deposited data

Results flagged for a closer look

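The arrays of *Relb* lay on opposite sides of their oil controls in the genotypes after DMBA, and neither the WT change nor the difference between genotypes was called. All 3 WT DMBA arrays (-0.26, -0.21 and -0.41) were lower than every WT oil array, and both Cyp1b1-null DMBA arrays (-0.65 and -0.39) were higher than both Cyp1b1-null oil arrays (-1.15 and -1.24). The difference between the responses was 1.85 ± 0.80 with all arrays (limma, adjusted p = 0.392) and 0.86 ± 0.25 without WT oil replicate 1 (adjusted p = 0.0666), so it did not pass the threshold in either fit. In Cyp1b1-null marrow 35.1% of all genes lay wholly higher after DMBA, in WT marrow 4.2% lay wholly lower, and on Cy3 alone the Cyp1b1-null change of *Relb* was 0.04.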

How the results depend on the processing

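Counts of the 10 genes called at adjusted p under 0.05 changed with the arrays and the signal used; the cause of the shifts below was not tested. After BP for 6 h in WT the count of 1 became 0 with no background subtraction, with the processed signals and with slide as a random block, 2 with the mean of probes, and 4 with the processed signals or Cy3 alone once WT oil replicate 1 was left out; leaving out 1 array at a time gave 0 to 6. After TCDD the count of 0 became 1 with no background subtraction or processed signals (*Maff*) or Cy3 alone (*Zfp36*), and without WT oil replicate 1 it was 3 with processed signals (*Nfkbiz*, *Socs3* and *Maff*) and 1 with Cy3 alone (*Zfp36*) (0 to 2 leaving out 1 array). For *Cyp1b1* loss the count of 2 became 1 with processed signals and 0 with Cy3 alone (with or without WT oil replicate 1) or slide as a random block; leaving out 1 array gave 0, without either Cyp1b1-null oil replicate, to 3. For *Cyp1a1* loss Cy3 alone gave 1 with and without that replicate, and leaving out 1 array gave 0 to 4, the 4 being lower genes without WT oil replicate 2. DMBA against TCDD gave 3 with Cy3 alone, with or without WT oil replicate 1 (*Zfp36*, *Rel* and *Socs3*, not the genes called on log ratios), and 3 with processed signals without it (*Nfkbiz*, *Relb* and *Maff*) (0 to 2 leaving out 1 array). Cyp1b1-null against WT DMBA gave 1 with Cy3 alone (*Relb*), and without that replicate 1 with processed signals (*Socs3*) and 2 with Cy3 alone (*Nfkbiz* and *Relb*; 0 to 1). DMBA in Cyp1b1-null mice gave 1 with processed signals without that replicate (*Ptgs2*, at 2.48; 0 to 2), and double loss 0 to 1. The counts after DMBA in WT, after BP for 12 h, between the BP groups and for the difference of DMBA responses were 0 in all these alternatives. The shares of all genes called on Cy3 alone or with the other signals are not given, so those counts have no background beside them.

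Of 662 gene and comparison values under an alternative, 588 kept direction and side of the threshold, 35 newly passed it, 21 lost it and 18 changed sign. On Cy3 alone the signs of *Socs3* after TCDD (-0.33, or -0.11 without WT oil replicate 1), *Maff* in *Cyp1b1* loss (-0.17) and *Relb* in DMBA against TCDD (0.10 with and without that replicate) changed. *Nfkbia* in double loss was -0.052 with no background subtraction, -0.049 with processed signals and -0.34 with the replicate number as a block. Leaving out 1 array at a time, *Nfkbia* after BP lay between -0.16 and 1.36, *Tnfaip3* after BP between -0.23 and 2.28, *Nfkbiz* after TCDD between -0.58 and 1.20, *Socs3* after TCDD between -0.024 and 0.60, *Socs3* in *Cyp1a1* loss between -0.0085 and 0.62, and *Nfkbia* in double loss between -0.50 and 1.02. Replicate numbers did not pair the samples; the replicate block changed none of the 13 counts (1 after BP for 6 h, 2 for *Cyp1b1* loss). The comparisons within a slide and the second probes were chosen after seeing the data.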
